A study of Mus musculus with 6 samples.

Results

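Messenger RNA of 10 Notch pathway genes was examined in 6 libraries of mouse muscle stem cells: the ligands Jag1, Jag2 and Dll1, the receptors Notch1, Notch2 and Notch3, and the Hes/Hey transcription factors Hes1, Hes6, Hey1 and Heyl. They were chosen by gene symbol from a table of 14515 genes, with earlier results of these data known, and all 10 were found and tested. The libraries carry 3 labels with 2 libraries each: mdx/Ripk3mKO, mdx and wt. The mdx mouse lacks functional dystrophin and is used as a model of Duchenne dystrophy, and the mdx/Ripk3mKO libraries share the mdx background. Ripk3 encodes a kinase required for necroptosis, an inflammatory form of cell death. The labels name neither the promoter or Cre line behind mKO nor the animals' age.

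The sources differ on which cells were sequenced. According to the sample labels, sorted satellite cells, the quiescent stem cells of muscle, went straight into library preparation, with 10000 to 20000 cells per library. According to the series text, activated wild-type cells were harvested after 72 hours of growth beneath a porous insert with mdx/Ripk3mKO, mdx or wt cells in it. The groups are therefore written as labelled, and whether a label refers to the sequenced cells or to the cells above them cannot be told apart. No label ties a library to its own animal or culture, so the p-values rest on differences among these libraries alone, and these differences may be technical.

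Notch signalling passes between touching cells. A Jagged or Delta-like ligand on one cell pulls on a Notch receptor of its neighbour, the receptor is cut, and its freed intracellular part enters the nucleus and joins the DNA-binding protein RBPJ. The complex switches on Hes and Hey genes, which encode repressors of the basic helix-loop-helix type. In mouse muscle, Notch signalling keeps satellite cells in quiescence and holds back differentiation, and mice lacking both Hey1 and Heyl lose satellite cells.

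Library totals of the deposited scaled counts lay between 20611974 and 21037153, and the read depth estimated from them was highest in the mdx/Ripk3mKO libraries, so depth and label go together there. Ripk3 itself had scaled counts of 17 and 33 in mdx/Ripk3mKO libraries, 23 and 36 in mdx libraries and 45 and 32 in wt libraries, and these values overlap between mdx/Ripk3mKO and both other labels. They do not check the label of the mdx/Ripk3mKO libraries, because the deleted part of the gene is not given. Dmd, the dystrophin gene, had 474 and 294 in mdx/Ripk3mKO libraries, 531 and 692 in mdx libraries and 324 and 432 in wt libraries, highest in both mdx libraries as Heyl was, and no comparison of it passed (limma adjusted p = 0.537 for mdx/Ripk3mKO against mdx and 0.815 for mdx against wt). The first mdx/Ripk3mKO library stood apart in sex-linked genes, with 6918 scaled counts of Xist against 164 to 666 in the other 5 libraries and 373 of the Y-linked Ddx3y against 1543 to 1785. Pax7, a satellite cell factor, had 1755 to 2119 scaled counts and Myog, a differentiation factor, had 26795 to 35263. Over 7 satellite cell markers the summed scaled counts were 33195 to 35143, and over 9 genes of differentiating muscle 218552 to 326004. These sums are not per length. Calcr and Chodl of the 9 satellite cell markers listed were not found. Which of the 2 accounts of the cells these values go with was not tested. Summed scaled counts were 91 to 119 for 6 endothelial markers 45 to 62 for 3 macrophage markers, 188 to 232 for 3 Schwann cell markers and 3744 to 5015 for 3 markers of fibro-adipogenic progenitors. Of this last sum Gsn, which is not specific to these cells, gave 3689 to 4953, while Pdgfra lay at 24 to 32 and Ly6a at 23 to 40. The other 5 markers listed were not found.

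Among the 10 genes, Heyl was the member that changed between labels. It was lower in mdx/Ripk3mKO libraries than in mdx libraries by 0.77 ± 0.09 on the log2 scale (fitted difference ± standard error), a comparison in which 0.206% of all tested genes passed a limma adjusted p of 0.05. The other 9 members did not pass the test in any comparison, although 5 members, Heyl, Jag1, Jag2, Dll1 and Hes6, had both mdx libraries outside the range of the other 4 libraries. Of 14077 genes tested, 20.5% had both mdx libraries outside that range. For Notch1, Notch2 and Hes1 the fitted differences between labels were within 0.08 of 0 on the log2 scale, rounded to 2 decimals.

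**Figure D1:**
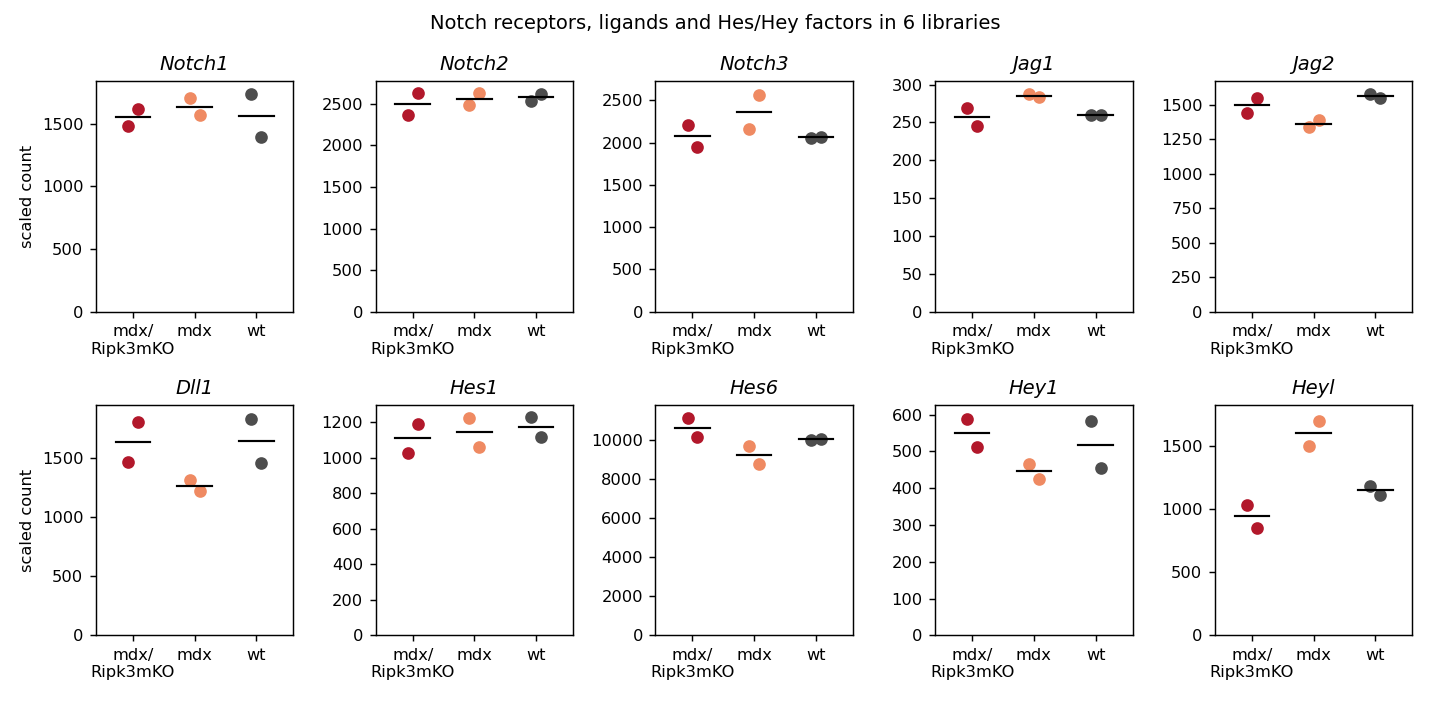
Scaled counts (y axis, one panel per gene) of the 10 Notch genes in each library, grouped on the x axis as mdx/Ripk3mKO, mdx and wt; each point is 1 library and each bar is the mean of 2. In Heyl the 3 labels separate, with 1035 and 848 in mdx/Ripk3mKO libraries, 1502 and 1697 in mdx libraries and 1186 and 1112 in wt libraries.

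Levels of different genes can be set side by side only per length, as scaled counts per kilobase of exon. On that scale Hes6 was the highest member, with a mean level of 5510 ± 418 (SD over 6 libraries), followed by Hes1 at 559 ± 41.6 and the ligand Dll1 at 360 ± 59.8. Levels of Notch3 at 268 ± 26.6, Heyl at 241 ± 61.3, Notch2 at 236 ± 9.58 and Jag2 at 212 ± 14.3 came next. Neighbours in the order from Dll1 to Jag2 had overlapping ranges. Hey1 at 155 ± 20.9, Notch1 at 111 ± 9.27 and Jag1 at 45.9 ± 2.75 closed the order, and each of these ranges was separate from its neighbours'. Notch3 and Notch2 transcripts were therefore both more abundant per length than Notch1 transcripts in all 6 libraries, and Jag1 was the lowest of the 10.

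**Figure D2:**
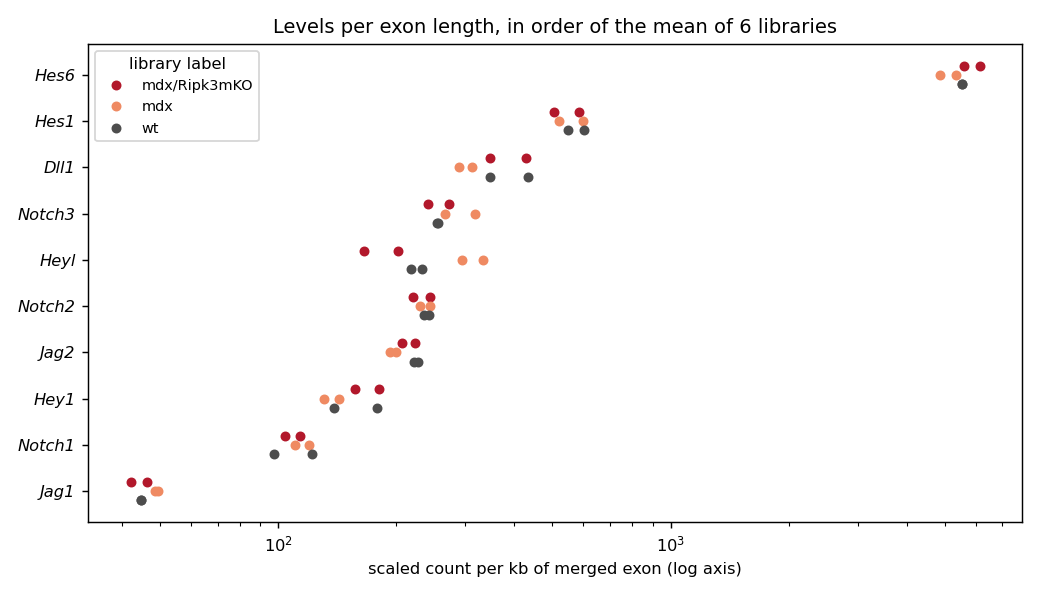
Level of each member per kilobase of exon (scaled counts per kb, log axis) in the 6 libraries, ordered by the mean over libraries; points are single libraries coloured by label. Hes6 stands near 5510 per kb and Jag1 near 45.9 per kb, while the ranges from Dll1 down to Jag2 run into each other.

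Of the ligands, Dll1 showed the widest differences between labels. Dll1 encodes Delta-like 1, a ligand that activates Notch in myogenic cells (ENSMUSG00000014773, mm10 chromosome 17, 15367354 to 15375976, minus strand). Its scaled counts were 1466 and 1810 in mdx/Ripk3mKO libraries, 1318 and 1219 in mdx libraries and 1830 and 1461 in wt libraries. Both mdx libraries were below the other 4, while the mdx/Ripk3mKO and wt libraries covered nearly the same range and were each spread by more than 1.23-fold. The fitted log2 difference was 0.36 ± 0.14 for mdx/Ripk3mKO against mdx (limma adjusted p = 0.424), -0.37 ± 0.14 for mdx against wt (adjusted p = 0.765) and -0.01 ± 0.14 for mdx/Ripk3mKO against wt (adjusted p = 1). None passed the threshold of 0.05. With 1 library left out, the first ranged from 0.21 (without the second mdx/Ripk3mKO library) to 0.51 (without the first), and the second from -0.20 (without the first wt library) to -0.53 (without the second). An antisense gene, A930024N18Rik, shares 867 exon bases with Dll1, and no source says if reads were counted by strand. It had 21 to 37 scaled counts.

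The sequence before the more distant Dll1 start is shown because both mdx libraries were low for this ligand and its window lies outside the gene's listed coordinates. Jag2 was also low in both mdx libraries, but its window lies inside the listed gene. Unlike the window before the first Dll1 start, the sequence shown holds CACGCG, a Hes and Hey site found in 7.62% of all windows. It covers the 250 bases before start 2 at chr17:15376933-15377182, minus strand, from RefSeq on GRCm38.p6, and the capitals mark CACGCG, whose first base lies 68 bases before the start.
Dll1 start 2: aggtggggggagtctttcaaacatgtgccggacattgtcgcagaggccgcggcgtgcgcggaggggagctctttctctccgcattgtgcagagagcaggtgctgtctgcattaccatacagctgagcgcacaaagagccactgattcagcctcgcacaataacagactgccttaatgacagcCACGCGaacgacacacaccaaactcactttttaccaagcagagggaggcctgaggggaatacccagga

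Jag2 (ENSMUSG00000002799, chromosome 12, 112907819 to 112929776, minus strand) encodes a Jagged ligand. It had scaled counts of 1440 and 1554 in mdx/Ripk3mKO libraries, 1343 and 1388 in mdx libraries and 1582 and 1549 in wt libraries. Both mdx libraries were again the lowest, and the mdx/Ripk3mKO and wt libraries overlapped. The difference of mdx from wt was -0.20 ± 0.06 on the log2 scale, with an unadjusted p of 0.00641 and a limma adjusted p of 0.586. Between mdx/Ripk3mKO and mdx it was 0.13 ± 0.06 (adjusted p = 0.432), and it was 0.02 once exon length and GC content were corrected for.

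Jag1 (ENSMUSG00000027276, chromosome 2, 137081456 to 137116644, minus strand), the other Jagged ligand, had the opposite order. Its scaled counts were 269 and 245 in mdx/Ripk3mKO libraries, 288 and 283 in mdx libraries and 260 and 260 in wt libraries. Both mdx libraries were the highest, by a margin close to the counting error of this gene, which reached 6.65% per library. No test passed: the log2 difference was -0.15 ± 0.10 for mdx/Ripk3mKO against mdx (limma adjusted p = 0.613) and 0.13 ± 0.10 for mdx against wt (adjusted p = 0.857). The ratio of the levels of the 2 Jagged genes per kilobase, Jag2 over Jag1, was 4.48 and 5.31 in mdx/Ripk3mKO libraries, 3.90 and 4.10 in mdx libraries and 5.09 and 4.98 in wt libraries. The ratio was lowest in both mdx libraries, and this was not tested.

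No receptor passed the test in any comparison. Notch2 (ENSMUSG00000027878, chromosome 3, 98013538 to 98150361, plus strand), which with Notch1 maintains quiescent satellite cells in mice, had scaled counts of 2371 and 2629 in mdx/Ripk3mKO libraries, 2484 and 2629 in mdx libraries and 2535 and 2617 in wt libraries. All 3 labels overlapped, and the highest library was 1.11 times the lowest. The 95% interval of the log2 difference ran from -0.17 to 0.10 for mdx/Ripk3mKO against mdx and from -0.14 to 0.12 for mdx against wt.

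Notch1 (ENSMUSG00000026923, chromosome 2, 26457903 to 26503822, minus strand) had scaled counts of 1484 and 1616 in mdx/Ripk3mKO libraries, 1708 and 1567 in mdx libraries and 1736 and 1391 in wt libraries. The wt libraries spanned all the others. Its log2 difference was -0.08 ± 0.10 for mdx/Ripk3mKO against mdx (limma adjusted p = 0.824) and 0.07 ± 0.10 for mdx against wt (adjusted p = 0.941).

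Notch3 (ENSMUSG00000038146, chromosome 17, 32120820 to 32166880, minus strand) is known in mice to restrain satellite cell proliferation and to be abundant in vascular mural cells. It had scaled counts of 2204 and 1948 in mdx/Ripk3mKO libraries, 2156 and 2566 in mdx libraries and 2055 and 2066 in wt libraries. The second mdx library was the highest of the 6, and the first lay inside the range of the mdx/Ripk3mKO libraries. The log2 difference was -0.18 ± 0.08 for mdx/Ripk3mKO against mdx (limma adjusted p = 0.431) and 0.19 ± 0.08 for mdx against wt (adjusted p = 0.757), and without the second mdx library these values were -0.06 and 0.07. Genes on the opposite strand share exon bases with Notch1 and Notch3, and they had no values to analyse. Notch4, a receptor known mainly from endothelium, was near the lower limit of the table, with 5 and 4 scaled counts in mdx/Ripk3mKO libraries, 2 and 6 in mdx libraries and 11 and 1 in wt libraries, and was not tested.

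Among the effectors, Heyl alone passed the test. Heyl (ENSMUSG00000032744, chromosome 4, 123233556 to 123249875, plus strand) encodes a Hey family repressor and is a direct Notch target in mouse muscle stem cells. Its scaled counts were 1035 and 848 in mdx/Ripk3mKO libraries, 1502 and 1697 in mdx libraries and 1186 and 1112 in wt libraries. The labels did not overlap in any pair: the mdx libraries were highest and the mdx/Ripk3mKO libraries lowest. In bulk RNA, fewer cells that express Heyl and less Heyl RNA per cell cannot be told apart.

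Heyl fell by 0.77 ± 0.09 on the log2 scale in mdx/Ripk3mKO libraries against mdx libraries (95% interval -0.98 to -0.56), with a limma adjusted p of 0.0162. The F-test over the 3 labels also passed, with an adjusted p of 0.0463. Heyl was 0.47 ± 0.09 higher on the log2 scale in mdx than in wt libraries (unadjusted p = 0.000389, adjusted p = 0.316) and differed by -0.29 ± 0.09 between mdx/Ripk3mKO and wt libraries (unadjusted p = 0.00998, adjusted p = 1), so neither of these passed. The comparisons share libraries, and the mdx libraries enter the first with a sign opposite to that in the second.

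The size of the Heyl difference between mdx/Ripk3mKO and mdx libraries stayed between -0.91 and -0.62 whichever library was left out, and without the first mdx/Ripk3mKO library it was -0.91 with a limma adjusted p of 0.00011. The call was lost without the second mdx library (adjusted p = 0.0843), without the first wt library (0.129) or the second (0.134), when only the mdx/Ripk3mKO and mdx libraries were fitted (0.134), and without the variance trend and robust fitting (0.415). The mdx against wt difference of 0.47 was unchanged in size but passed the test when the mdx/Ripk3mKO libraries were left out of the fit, together (adjusted p = 0.00614) or singly (0.00675 without the first and 0.00633 without the second). In each of these 3 fits 103 genes passed over the whole table, against 1 in the fit of all 6 libraries.

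**Figure D3:**
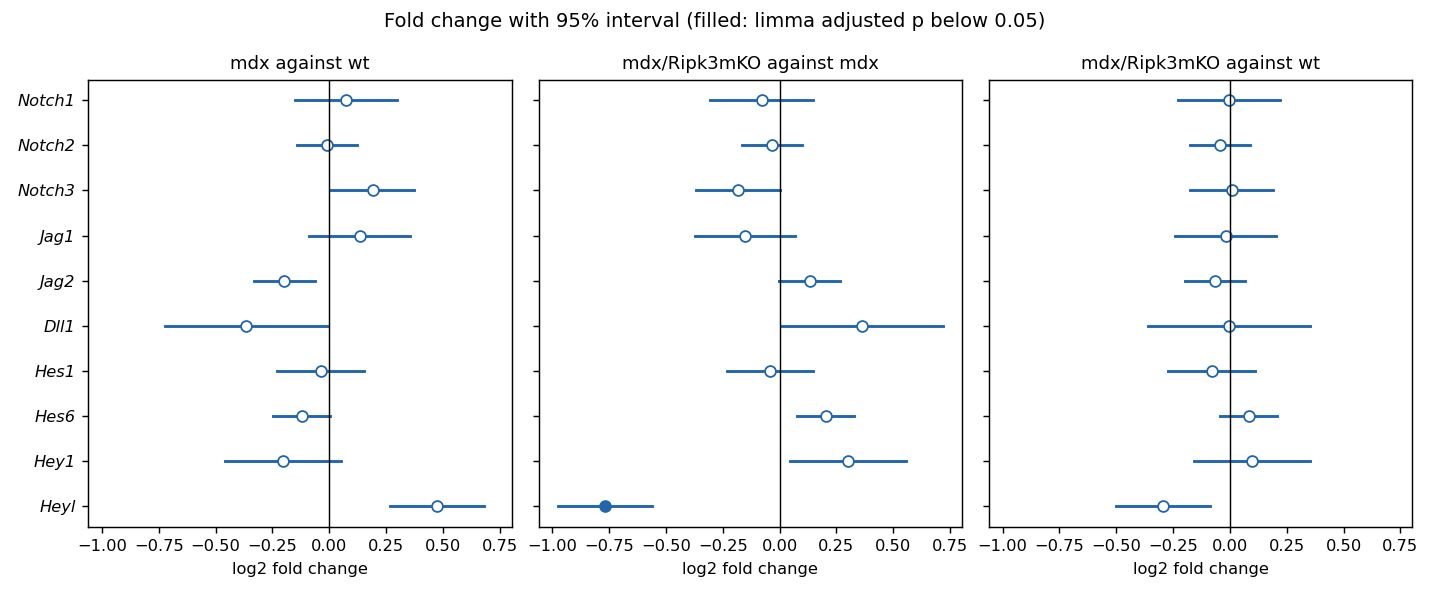
Fitted log2 difference of each member with its 95% interval (x axis, log2 of scaled count + 1) in a panel for each comparison, positive where the first-named label is higher; filled points passed a limma adjusted p of 0.05. The filled point is Heyl at -0.77 in mdx/Ripk3mKO against mdx, while the interval of Heyl in mdx against wt, around an open point at 0.47, also stays clear of 0.

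Hey1 (ENSMUSG00000040289, chromosome 3, 8663359 to 8667256, minus strand), the close relative of Heyl that acts with it in satellite cells, did not pass the test. Its scaled counts were 589 and 513 in mdx/Ripk3mKO libraries, 467 and 426 in mdx libraries and 582 and 454 in wt libraries. The mdx/Ripk3mKO libraries were above both mdx libraries, and the wt libraries reached from near one end to the other. The log2 difference was 0.30 ± 0.12 for mdx/Ripk3mKO against mdx (unadjusted p = 0.0246, limma adjusted p = 0.351) and -0.20 ± 0.12 for mdx against wt (adjusted p = 0.815). Without the first wt library the second value was -0.03, and without the second wt library -0.38.

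Within single libraries Heyl was also read as a ratio to Hey1 and to Notch3. Heyl over Hey1, as a ratio of levels per kilobase, was 1.12 and 1.06 in mdx/Ripk3mKO libraries, 2.05 and 2.54 in mdx libraries and 1.30 and 1.56 in wt libraries. Heyl over Notch3 was 0.743 and 0.689 in mdx/Ripk3mKO libraries, 1.10 and 1.05 in mdx libraries and 0.913 and 0.852 in wt libraries. In both ratios the labels did not overlap. The ratios were formed after the values were seen and were not tested, and they rest on the same Heyl counts as the difference above.

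Hes6 (ENSMUSG00000067071, chromosome 1, 91411483 to 91413222, minus strand) differs from the other effectors in that its protein opposes Hes1 and favours differentiation in mouse cells. Its scaled counts were 11122 and 10131 in mdx/Ripk3mKO libraries, 9685 and 8783 in mdx libraries and 10019 and 10037 in wt libraries. Both mdx libraries were lowest and both mdx/Ripk3mKO libraries highest, with no overlap between any pair of labels. The log2 difference was 0.20 ± 0.06 for mdx/Ripk3mKO against mdx (unadjusted p = 0.00381, limma adjusted p = 0.200), -0.12 ± 0.06 for mdx against wt (adjusted p = 0.781) and 0.08 ± 0.06 for mdx/Ripk3mKO against wt (adjusted p = 1). None passed the threshold, and correcting for exon length and GC content took the first to 0.13.

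The sequence before one Hes6 start is shown because both mdx libraries were lowest for this member and its window lies outside the gene's listed coordinates. Like the windows before Notch1, Notch3, Jag2, the other Hes6 start and the first Dll1 start, it holds none of the motifs searched. It covers 250 bases at chr1:91413223-91413472, minus strand, from RefSeq on GRCm38.p6.
Hes6 start 2: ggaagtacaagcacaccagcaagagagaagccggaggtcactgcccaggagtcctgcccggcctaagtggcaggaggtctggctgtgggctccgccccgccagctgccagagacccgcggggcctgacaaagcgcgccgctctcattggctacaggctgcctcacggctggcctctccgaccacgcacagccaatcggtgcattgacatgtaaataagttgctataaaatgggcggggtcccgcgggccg

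Hes1 (ENSMUSG00000022528, chromosome 16, 30065340 to 30067796, plus strand), the classical Notch target and a repressor of myogenic genes, had scaled counts of 1028 and 1188 in mdx/Ripk3mKO libraries, 1222 and 1060 in mdx libraries and 1225 and 1114 in wt libraries. The 3 labels overlapped. The log2 difference was -0.04 ± 0.09 for mdx/Ripk3mKO against mdx (95% interval -0.23 to 0.15), -0.04 ± 0.09 for mdx against wt (-0.23 to 0.15) and -0.08 ± 0.09 for mdx/Ripk3mKO against wt (-0.27 to 0.11). These intervals leave out a difference of the size fitted for Heyl between mdx/Ripk3mKO and mdx.

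RefSeq promoters were found for 7 of the 10 members, with 9 starts in all, Hes1, Hey1 and Heyl being the members without an entry in the table used. In the 250 bases before each start, both strands were searched for TGGGAA, the core bound by RBPJ, and for the Hes and Hey sites CACGTG and CACGCG. No member window held TGGGAA or CACGTG, which 21.6% and 6.02% of 32851 mouse windows of the same length held. CACGCG was found once before Notch2, at 2 places before Jag1 and once before the second Dll1 start, and in 7.62% of all windows. These matches describe the letters alone.

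Counts over the 10 members were read against all 14077 genes tested. The members were chosen with earlier results of these data known, so these shares describe a set that was not chosen blind. In mdx/Ripk3mKO against mdx, 1 member was lower at a limma adjusted p below 0.05 and none was higher, against 0.121% of all tested genes lower and 0.0852% higher. At an unadjusted p below 0.05, Hes6, Dll1 and Hey1 were higher and Heyl lower, which is 4 of 10 members against 11.6% of all genes. Labels did not overlap for 6 members, against 41.3% of all genes: Hes6, Dll1, Jag2 and Hey1 were higher, as were 21% of all genes, and Jag1 and Heyl lower, as were 20.3%.

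In mdx against wt, 0 members passed the adjusted threshold, against 0.0071% of all genes. At an unadjusted p below 0.05, Notch3 and Heyl were higher and Dll1 and Jag2 lower, 4 of 10 against 6.46% of all genes. Labels did not overlap for 6 members, against 35.9% of all genes: Notch3, Jag1 and Heyl were higher, as were 17.6% of all genes, and Hes6, Dll1 and Jag2 lower, as were 18.3%. In mdx/Ripk3mKO against wt, 0 members and 0% of all genes passed, and of the members Heyl alone reached an unadjusted p below 0.05, as lower, against 2.09% of all genes lower and 1.24% higher, or 3.32% in all. Labels did not overlap for 2 members, against 29.4% of all genes: Hes6 was higher, as were 14.4%, and Heyl lower, as were 15.1%. The F-test called 1 member, Heyl, and 0.0781% of all genes, and Heyl, Hes6 and Jag2 had an unadjusted F-test p below 0.05, as did 7.87% of all genes. The median log2 difference over the 10 members was -0.04 for mdx/Ripk3mKO against mdx, -0.02 for mdx against wt and -0.01 for mdx/Ripk3mKO against wt, close to the medians of -0.00, -0.00 and 0.00 over all tested genes.

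The rest of the pathway was read from a list of 92 other Notch genes and reported targets, of which 77 were in the table and 75 were tested. None of the 75 passed an adjusted threshold of 0.05 with limma in any comparison or in the F-test. At an unadjusted p below 0.05, 14 were higher and 1 lower in mdx/Ripk3mKO against mdx, and 1 was higher and 8 lower in mdx against wt, against 5.77% higher and 5.87% lower of all genes in the first and 3.44% and 3.02% in the second. In mdx/Ripk3mKO against wt, 1 was higher and 1 lower. The median log2 difference was 0.03 for mdx/Ripk3mKO against mdx, -0.04 for mdx against wt and 0.01 for mdx/Ripk3mKO against wt. The first and second comparisons use the same mdx libraries, which were below all other libraries for 19 of the 75 genes and above them for 6, against 10.9% and 9.65% of all tested genes.

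By role, the enzymes that cut Notch receptors were represented by 10 tested genes. In mdx/Ripk3mKO against mdx 2 had an unadjusted p below 0.05, both higher. At that level 5.77% of all tested genes were higher and 5.87% lower. Furin, the protease that cleaves Notch on its way to the surface, had 6374 and 6179 scaled counts in mdx/Ripk3mKO libraries, 5384 and 5113 in mdx libraries and 6249 and 5772 in wt libraries. Both mdx libraries were lowest, and the log2 difference of 0.26 ± 0.06 for mdx/Ripk3mKO against mdx had a limma adjusted p of 0.0796. Aph1a and Psen2, both parts of gamma-secretase, leaned in opposite directions in the same comparison, at 0.28 ± 0.10 and -0.26 ± 0.13.

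Of 4 tested enzymes that place sugars on Notch, Lfng, the lunatic fringe gene, had 486 and 613 scaled counts in mdx/Ripk3mKO libraries, 429 and 395 in mdx libraries and 604 and 461 in wt libraries. Its log2 difference for mdx/Ripk3mKO against mdx was 0.41 ± 0.15 (limma adjusted p = 0.348), and the differences of Poglut1 and Rfng were -0.07 ± 0.07 and 0.10 ± 0.13. Of 18 genes of ubiquitination and endocytosis, 1 reached an unadjusted p below 0.05 in mdx/Ripk3mKO against mdx, against 11.6% of all tested genes. It was the epsin gene Epn1 at 0.16 ± 0.06 (limma adjusted p = 0.271). Dtx4 and Nedd4l stood at -0.14 ± 0.07 and 0.15 ± 0.07.

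None of 9 tested genes of the nuclear complex passed. Its DNA-binding member Rbpj had 2248 and 2323 scaled counts in mdx/Ripk3mKO libraries, 2331 and 2185 in mdx libraries and 2424 and 2422 in wt libraries. Both wt libraries were the highest by a small margin, and the log2 difference was 0.02 ± 0.06 for mdx/Ripk3mKO against mdx and -0.10 ± 0.06 for mdx against wt (limma adjusted p = 0.810). Maml2, a coactivator of the Notch complex, had 255 and 240 in mdx/Ripk3mKO libraries, 184 and 190 in mdx libraries and 219 and 261 in wt libraries, a log2 difference of 0.40 ± 0.12 for mdx/Ripk3mKO against mdx (adjusted p = 0.209). Crebbp stood at -0.02 ± 0.06.

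Among 16 corepressors of RBPJ or of Hes and Hey proteins, 5 were higher and none lower at an unadjusted p below 0.05 in mdx/Ripk3mKO against mdx. At that level 5.77% of all tested genes were higher and 5.87% lower. Aes, a short Groucho relative, had 3686 and 3326 scaled counts in mdx/Ripk3mKO libraries, 2984 and 2808 in mdx libraries and 3380 and 3162 in wt libraries. Both mdx libraries were the lowest. Its log2 difference was 0.27 ± 0.06 (limma adjusted p = 0.0974), that of the corepressor Ctbp2 0.23 ± 0.06 (0.159) and that of the Groucho family gene Tle1 0.23 ± 0.09 (0.339).

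Of 8 tested targets reported outside the Hes and Hey family, 6 had a difference above 0 for mdx/Ripk3mKO against mdx, with a median of 0.07. None passed. Of all 14077 tested genes, 6927 were above 0 in this comparison and 7136 below. Gata2, Snai1 and Efnb2 had log2 differences of 0.20 ± 0.07, 0.21 ± 0.08 and 0.11 ± 0.06 in this comparison, with limma adjusted p of 0.292, 0.369 and 0.460. Of 7 tested targets reported in mouse muscle stem cells, 5 had a difference below 0, with a median of -0.14, and none passed. Col5a3, a collagen V chain, had 1505 and 1029 scaled counts in mdx/Ripk3mKO libraries, 1821 and 1955 in mdx libraries and 1227 and 1345 in wt libraries. Its difference of -0.60 ± 0.21 had the sign of Heyl's but did not pass (adjusted p = 0.417), and Col5a2 and Tns3 stood at 0.11 ± 0.05 and 0.09 ± 0.05. Hey2, the Hey factor known best from heart and vessels, had 21 and 9 scaled counts in mdx/Ripk3mKO libraries, 17 and 21 in mdx libraries and 7 and 16 in wt libraries. The mdx libraries were above the wt libraries, with a log2 difference of 0.77 ± 0.47 (limma adjusted p = 0.830), and the mdx/Ripk3mKO libraries overlapped with both. The ligand-like genes Dlk2 and Dner stood at 0.50 ± 0.16 and 0.20 ± 0.11 (adjusted p = 0.231 and 0.505).

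**Figure D4:**
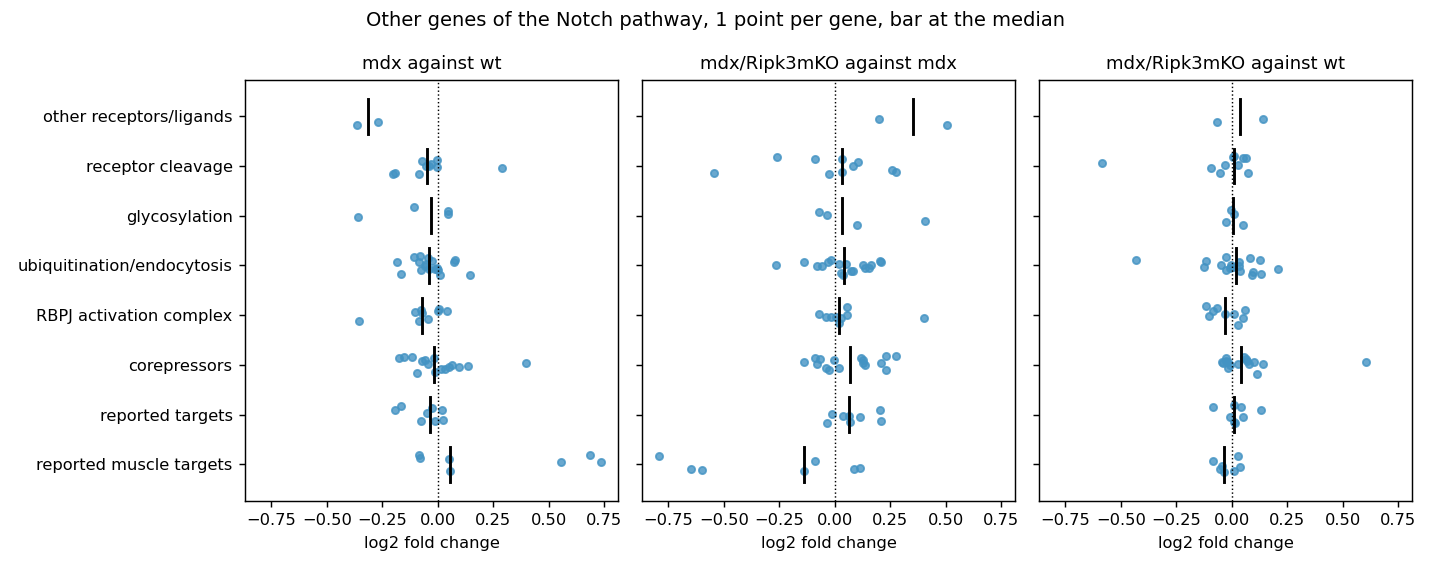
Fitted log2 difference (x axis) of the other Notch pathway genes by role (rows) in a panel for each comparison; each dot is 1 tested gene and the bar is the median of its role, and Hey2 is not drawn. No dot passed a limma adjusted p of 0.05, and over all 75 genes the median was 0.03 for mdx/Ripk3mKO against mdx, -0.04 for mdx against wt and 0.01 for mdx/Ripk3mKO against wt.

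Genes of the myogenic state were set beside the members. None of 10 passed in any comparison. Myod1, the myogenic factor that Hes1 opposes, had 22696 and 23595 scaled counts in mdx/Ripk3mKO libraries, 19459 and 18636 in mdx libraries and 23226 and 21120 in wt libraries, a log2 difference of 0.28 ± 0.05 for mdx/Ripk3mKO against mdx with a limma adjusted p of 0.0528. Pax7 stood at -0.14 ± 0.07 and Mef2c at -0.68 ± 0.33, and of the 10 genes 3 were above 0 and 7 below in this comparison. The 9 tested markers of differentiating muscle went with Heyl in direction. Myog, a differentiation factor that is not among these 9, had the opposite sign to Heyl. It stood at 0.17 ± 0.15 for mdx/Ripk3mKO against mdx and -0.10 ± 0.15 for mdx against wt. For mdx/Ripk3mKO against mdx 9 of 9 tested had a difference below 0, as did 7136 of all 14077 tested genes. For mdx against wt 9 of 9 were above 0, as were 6898 of all tested genes. The comparisons share the mdx libraries, and none of the 9 passed. Their summed scaled counts were 297829 and 218552 in mdx/Ripk3mKO libraries, 326004 and 293099 in mdx libraries and 254359 and 253986 in wt libraries, and their part in the Heyl difference was not tested.

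The 4 genes whose profile over the 6 libraries was most like that of Heyl were Pdgfrb, Islr, Nrep and Plekha7. They were taken from 8621 tested genes with a mean of at least 200 whose symbol was not a predicted, clone or RIKEN name. Likeness is the root mean square difference between log2 profiles centred on their own means, and it ran from 0.0902 for Pdgfrb to 0.119 for Plekha7, where the profile of Heyl itself had an SD of 0.33. None of the 4 passed the test in any comparison. Pdgfrb, a receptor that marks pericytes, had 330 and 248 in mdx/Ripk3mKO libraries, 409 and 444 in mdx libraries and 333 and 309 in wt libraries, with a log2 difference of -0.57 ± 0.12 for mdx/Ripk3mKO against mdx (limma adjusted p = 0.0836). Islr had 522 and 401 in mdx/Ripk3mKO libraries, 709 and 840 in mdx libraries and 505 and 478 in wt libraries, with a log2 difference of -0.75 ± 0.12 (adjusted p = 0.0552). In both genes the mdx libraries were the highest, and the mdx/Ripk3mKO and wt libraries overlapped.

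**Figure D5:**
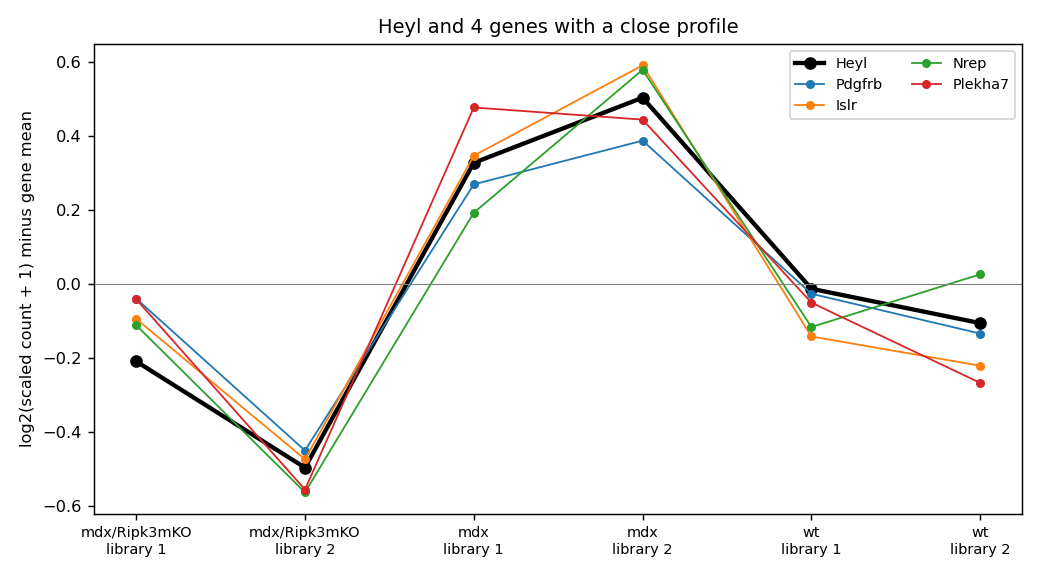
Log2 scaled count of Heyl and of 4 genes most like it, each centred on its own mean over 6 libraries (y axis), in the mdx/Ripk3mKO, mdx and wt libraries (x axis); lines only join the points of a gene. All 5 profiles are highest in the mdx libraries, and root mean square differences from Heyl lie between 0.0902 and 0.119.

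Because Heyl, Notch3 and Pdgfrb are also expressed in pericytes, the whole marker list for pericytes and smooth muscle was read beside Heyl. Of 8 markers 6 were in the table, Kcnj8 and Myh11 were not, and none of the 6 was at 0. Summed scaled counts of the list were 51522 and 47554 in mdx/Ripk3mKO libraries, 54991 and 38862 in mdx libraries and 52341 and 41947 in wt libraries, mostly Acta2, and they overlapped between all labels. For mdx/Ripk3mKO against mdx, 3 of the 6 had a difference below 0, as Heyl did (Pdgfrb, Abcc9 and Rgs5), and 3 above 0. Abcc9, a potassium channel subunit, had 928 and 614 in mdx/Ripk3mKO libraries, 1008 and 1030 in mdx libraries and 697 and 818 in wt libraries, and its difference of -0.43 ± 0.23 did not pass (limma adjusted p = 0.567). Rgs5 had 20 and 17 in mdx/Ripk3mKO libraries, 22 and 27 in mdx libraries and 11 and 18 in wt libraries, with differences of -0.38 ± 0.35 for mdx/Ripk3mKO against mdx and 0.75 ± 0.35 for mdx against wt (adjusted p = 0.723 and 0.773). In Abcc9 and Rgs5 both mdx libraries were the highest. Cspg4 had the opposite order, with 1735 and 1706 in mdx/Ripk3mKO libraries, 1354 and 1185 in mdx libraries and 1773 and 1602 in wt libraries, and it passed the test as higher in mdx/Ripk3mKO against mdx (0.44 ± 0.07, limma adjusted p = 0.0289). The part of these cells in the Heyl difference was not tested.

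The other members examined in this way varied less than Heyl. Pafah1b3, Arhgef19, Fasn, Traf2 and Asf1b were nearest to Jag2, whose profile had an SD of 0.0894, with Pafah1b3 at a difference of 0.00848. Rab3il1, Adam8, Tmeff2, Tmem110 and Tmem129 were nearest to Hey1 (SD 0.176), with Rab3il1 at 0.0470. Sema6c, Tbc1d8b, Mitf, Cyth3 and Fkbp5 were nearest to Notch3 (SD 0.125), and Arid5a, Brd3, Prkrip1, Mtss1 and Dapk2 to Hes1 (SD 0.0988).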

How the data were processed

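Libraries were made with version 2 of the Takara SMARTer stranded total RNA kit, per the labels' protocols. Per the submitters' processing notes, reads were processed with Trimmomatic 0.36, STAR 2.6.1d, featureCounts 1.6.3 and DESeq2 1.18.1, with mm10 named as the build. The authors deposited 1 table whose values are whole numbers with skipped values, a score read here as counts scaled between libraries and rounded. The mdx columns share a header and were numbered in column order, as names only. Read depth, estimated from the skipped numbers, was 17994044 to 25328732 per library. Counting errors (0.864% to 6.65%) cover counting only.

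limma 3.58.1 (R 4.3.3, statmod 1.5.0) was fitted to log2(scaled count + 1) over all 6 libraries with label as the only term, which leaves 3 residual degrees of freedom, with a variance trend and robust moderation. Testing was limited to 14077 genes that reached 10 in 2 or more libraries, which left out 438, with Benjamini-Hochberg adjustment over all of them. Differences on this scale are understated for low genes. The fit was also run on simulated counts whose spread was taken from the fit itself. That run cannot check the spread, and its outcome is not reported here. Exon lengths came from GENCODE, whose gene ends differ from the table's for 6 members, and were available with GC content for 99.96% of tested protein-coding genes.

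The members and lists were chosen with earlier results of these data known. All members were named. Of each list, genes past the threshold and up to 3 with the smallest F-test p were named, and for 5 members the 5 nearest profiles, of which 1 for Heyl is not reported here. Replicate numbers were not used to pair the libraries in the main fit. Deviations of same-numbered mdx/Ripk3mKO and wt libraries had a correlation of -0.0049 over 11027 genes. This value rests on 1 difference per label and leaves out the mdx libraries, so it cannot exclude a shared batch. The Dll1 and Hes6 promoters were chosen after values were seen.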

Additional observations from a re-analysis of the deposited data

How the results depend on the processing

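Of 460 alternative values for the 30 member differences, 429 kept their direction and side of the threshold, 3 came to pass it and 5 no longer did, all 8 of them for Heyl, and 23 changed sign, none past the threshold in either setting and none above 0.16 in size. The alternatives were the pseudocount, the filter, scaling to the column total, quantile normalization, no variance trend or robust fitting, correction for exon length and GC content, fits of only the groups compared, and leaving out each library in turn. Several of these cannot change the fitted difference or its sign. They are the filters, the fit without trend, fits of only the groups compared, and leaving out a library of a label outside the comparison. The 429 values are therefore not separate checks, and members other than Heyl were far from the threshold in the main fit. A group left with 1 library is assumed to vary like the others.

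Members past the threshold in mdx/Ripk3mKO against mdx numbered 0 with no variance trend and no robust fitting and 0 with only the groups compared, and 0 to 1 with a library left out. In mdx against wt they numbered 1 with only the groups compared and 0 to 1 with a library left out. In the F-test they numbered 0 with at least 50 in every library and 0 with no variance trend, and 0 to 1 with a library left out (0 without either mdx or either wt library). Other pathway genes past the threshold in mdx against wt numbered 2 with only the groups compared and 0 to 2 with a library left out, and in mdx/Ripk3mKO against mdx 0 to 4 (4 without mdx/Ripk3mKO replicate 1). Over all genes, calls in mdx against wt numbered 103 of 13878 with only the groups compared and 103 without either mdx/Ripk3mKO replicate, against 1 of 14077 in the fit of all libraries. Those in mdx/Ripk3mKO against mdx numbered 278 of 13982 without mdx/Ripk3mKO replicate 1, 2 with only the groups compared and 1 with no variance trend, against 29. In mdx/Ripk3mKO against wt the counts of members and of other pathway genes were 0 throughout, also with a replicate block, which changed no call. Over all genes the count in this comparison was not 0 in every setting. No block could be fitted for comparisons with mdx, whose libraries carry no number of their own. The cause of these changes was not tested.

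Sign changes outside the left-out libraries were Notch2 in mdx against wt at 0.00059 with quantile normalization, and Notch3 in mdx/Ripk3mKO against wt at -0.0037 relative to the column total, -0.00036 with quantile normalization and -0.0303 with the length and GC correction. With a library left out, mdx against wt ranged from -0.0856 to 0.234 for Notch1, -0.0523 to 0.0296 for Notch2 and -0.14 to 0.0649 for Hes1. In mdx/Ripk3mKO against mdx, Notch2 ranged from -0.108 to 0.0409 and Hes1 from -0.147 to 0.0618. In mdx/Ripk3mKO against wt, Notch1 ranged from -0.165 to 0.155, Notch2 from -0.119 to 0.0296, Notch3 from -0.081 to 0.0971, Jag1 from -0.0854 to 0.0489, Dll1 from -0.168 to 0.157, Hes1 from -0.184 to 0.0242 and Hey1 from -0.0823 to 0.275.

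Counting error per library reached 6.65% for Jag1, the lowest member. Notch4 was too low to be tested.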
